A study of Homo sapiens with 124 samples.

Results

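The contacts of human chromosome 11 with the nuclear lamina were followed along both arms in single haploid cells. The units are bins of 100 kb in the build hg19, kept where no cell lacked a number and where not all cells were at 0. Chromosome 11 held 1308 of the 26426 such bins of the whole table, or 4.95%, and they covered 130.8 Mb between positions 100001 and 135000000. Of its 1351 bins, 37 had no number and 6 were at 0 in every cell and were left out. The longest stretch without numbers, 3.1 Mb from 51600001 to 54700000, is called the centromere gap below and separated 512 bins of the short arm from 796 bins of the long arm.

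The nuclear lamina is a meshwork of lamin proteins on the inner face of the nuclear envelope. The DNA that touches it is mostly gene-poor and transcriptionally quiet, whereas gene-dense DNA tends to lie in the nuclear interior, and a given region can touch the lamina in some cells of a population and not in others. Chromosome 11 carries both kinds of DNA. It is known for the imprinted genes near the tip of its short arm, for the beta globin genes, for large clusters of olfactory receptor genes, for a gene-dense part of the long arm close to the centromere and for gene deserts farther out. Genes are named here as background from general knowledge of the chromosome; no gene positions of this build were used, and no bin was assigned to a gene.

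All cells belonged to clone 14 of KBM7, an established leukaemia line with a nearly haploid genome, and were labelled 1N. A single clone limits them as a model of other cells. They expressed LaminB1, a main lamina protein, fused to the bacterial methyltransferase Dam, which marks adenines of GATC motifs near the lamina in the living cell. Fusion protein activity was induced with 0.5 nM of the stabilising ligand Shield1 for 15 h, and cells were sorted singly from the smallest 2% of those positive for both colours of Fucci, a reporter of the cell cycle. The labels name 124 cells in 1 group, and 118 of them were analysed. No culture is named and there is no second group, so cells are not replicates of a condition. Values over cells are therefore given with the SD as the spread between cells, and no test was made.

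The deposited value is a ratio of observed to expected reads, and a bin was counted as in contact in a cell at a ratio of 1 or more. Frequency below means how many of the 118 cells, in percent, had a given bin in contact. Contact share means how many of the bins considered, in percent, were in contact in a given cell. Whole reads could be recovered from the ratios, and chromosome 11 received between 44 and 24613 reads per cell, with a median of 7583.5. In its median bin a ratio of 1 was worth between 1.21 and 16.3 reads depending on the cell, with a median of 5.79. It stood for under 3 reads in 13 cells. Ratios near the limit were frequent, as 2434 of the 58215 contacts had a ratio from 1 to under 1.1, and a further 2455 ratios lay from 0.9 to under 1. Samples numbered 1 to 94 (90 cells) and 96 to 124 (28 cells) differed in several measures, and both sets are given where they part. The labels name no batch behind these numbers, and the part of this split in the results was not tested.

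Cell 58 stood apart on this chromosome. Only 44 of its 38475 recovered reads, 0.114%, lay on chromosome 11, against a median of 5.63% over all cells and 2.70% in cell 73, the next lowest. The highest percentage, 9.75%, was found in cell 47. The 44 reads of cell 58 lay in 42 bins, 19 reads on the short and 25 on the long arm, and no bin held more than 2. Their places were those that were often in contact in the other cells: 33 of the 42 bins, or 78.6%, were at a frequency of 50% or more, against 42.5% of all bins of the chromosome, and none was at 5% or less, against 37.0%. Only 2 bins reached a ratio of 1, from 37400001 to 37500000 and from 42500001 to 42600000. Of the 22 sequences of the table, only chromosome 21 had a similarly low percentage of reads in this cell, 0.0338 times the median of the cells, against 0.0203 times for chromosome 11. The others lay between 0.418 and 8.06 times. A low number of reads and a low number of contacts cannot be told apart in this cell. It is kept in all values below, and values that rest on it are also given without it.

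Chromosome 11 touched the lamina more than the average of the genome. Its contact share was 37.7% ± 8.90 per cell (SD, n = 118), and the remaining chromosomes together had 32.7% ± 5.39. The lowest cells on chromosome 11 were cell 58 at 0.153% and cell 73 at 13.2%, the median was 39.7%, and the highest was cell 100 at 53.6%. Chromosome 11 exceeded the other chromosomes in 100 of 118 cells, by 4.98 percentage points ± 5.81 on average. It ranked at position 6 of the 22 sequences. Chromosomes 10 and 12, which are of similar length, were lower at 29.5% ± 8.65 and 30.2% ± 8.85, and chromosome 11 exceeded them in 104 and 103 of 118 cells. Cells 96 to 124 had a higher share, 42.3%, than cells 1 to 94, which had 36.3%. The rest of the genome differed between these sets in the same direction, at 36.2% against 31.7%. Without cell 58 the mean share of chromosome 11 was 38.0% ± 8.22 (SD over 117 cells).

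Part of the spread between cells went with depth and with the cell as a whole. The share of chromosome 11 correlated over the 118 cells with the recovered reads of the cell (Pearson's r = 0.664) and with the share of all other chromosomes (r = 0.776). All of these measures come from the same libraries. Their part in the differences between cells was not tested.

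Frequent contact was more common on chromosome 11 than in the table as a whole, though not than on every chromosome. A frequency of 80% or more was reached by 267 of its bins, or 20.4%, against 15.1% of all usable bins, 10.8% on chromosome 10 and 13.4% on chromosome 12. Chromosomes X, 4 and 18 had more, with 26.7, 24.3 and 21.3%, and chromosomes 6 and 3 had 19.9% each. The 26.7 Mb of chromosome 11 held 46.7% of the contacts of the chromosome. At 90% or more there were 39 bins, or 2.98%, against 1.94% of all usable bins. Chromosome 10 had 3 such bins and chromosome 12 had 8. At the other end, 322 bins or 24.6% were in contact in no cell, against 22.3% of all usable bins, and 0 of 118 cells leaves room for a frequency as high as 3.08% (exact 95% interval; 3 counts would be 2.54%). Bins at 5% or less made up 37.0%, against 38.8% of all usable bins. Bins at 20 to under 80% made up 32.6%, against 33.9%. At full depth, the bins of chromosome 11 thus stood above the background at the frequent end and close to it for rare and intermediate contact. With 109 cells thinned to 50000 reads its share at 80% or more was 13.6%, and that of all usable bins was not computed.

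**Figure D1:**
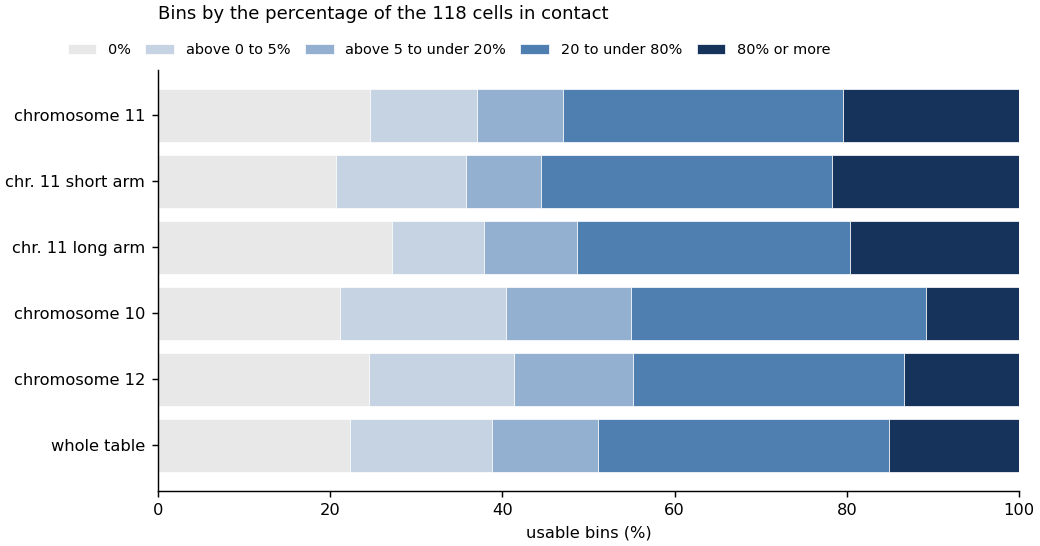
Usable bins (horizontal axis, percent of the bins) by the percentage of the 118 cells in contact, for chromosome 11, each of its arms, chromosomes 10 and 12 and the whole table. The darkest part, bins at 80% or more, is 20.4% on chromosome 11 and 15.1% in the whole table.

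The short and the long arm had close shares of contact. The short arm had 39.5% ± 9.86 of its bins in contact per cell and the long arm 36.6% ± 9.33 (SD, n = 118). The short arm was higher in 84 of 118 cells, by 2.95 points ± 7.05 on average, which is less than the spread between cells. Both arms were within 10 points of each other in 93 cells, the short arm was higher by over 10 points in 19 and the long arm in 6. On chromosome 12 the arms differed by 12.0 points in favour of the long arm and on chromosome 10 by 3.44 points. Bins at 80% or more were 111 of 512 on the short arm, or 21.7%, and 156 of 796 on the long arm, or 19.6%. Bins without any contact were more common on the long arm, with 27.1% against 20.7%.

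Single cells could differ strongly between the arms. In cell 11 the short arm had 18.6% and the long arm 39.8%, with 1361 and 5139 reads. In cell 89, which is among the shallowest with 31871 reads in all, the values were 7.62 and 26.5%. The opposite was seen in cell 108, with 49.8% on the short and 26.9% on the long arm from 3566 and 2874 reads, and in cell 111, with 47.7 and 26.3%. The difference between the arms did not follow the recovered reads of the cell (r = -0.0420, and -0.0476 without cell 58).

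**Figure D2:**
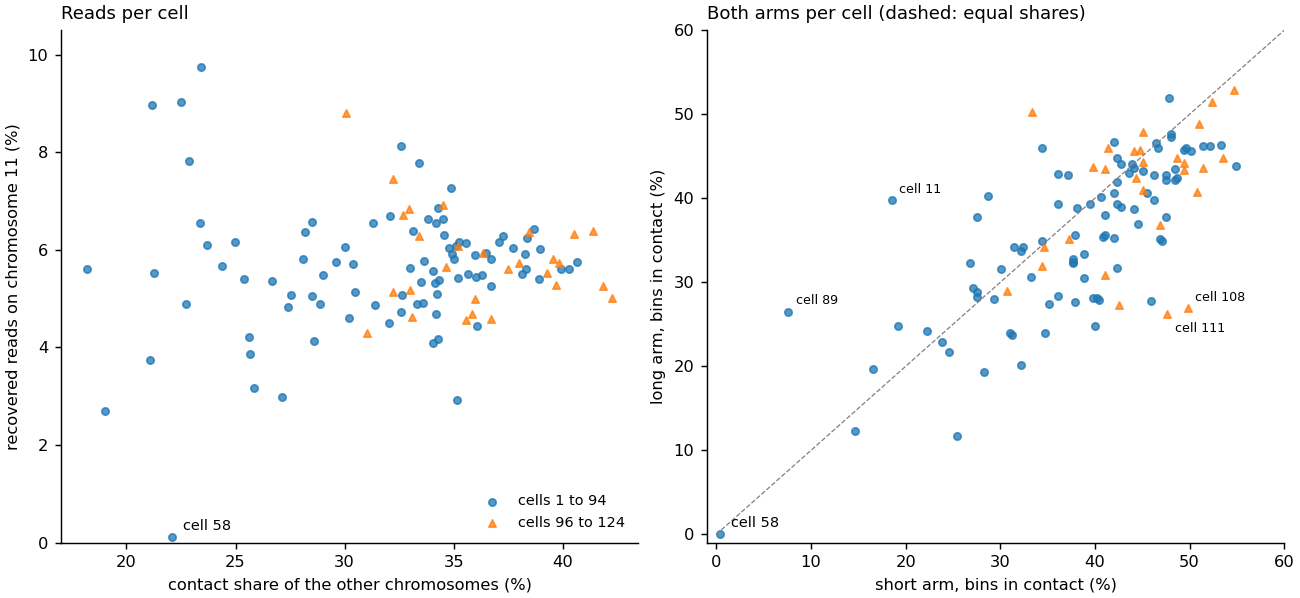
Left, percentage of a cell's recovered reads on chromosome 11 (vertical) against the contact share of its other chromosomes (horizontal); right, contact share of the long arm (vertical) against that of the short arm (horizontal), in percent, with a dashed line of equal shares. Each symbol is a cell, circles for cells 1 to 94 and triangles for cells 96 to 124; cell 58 lies near 0 in both panels, at 0.114% of reads and at 0.391 and 0% of the arms.

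Bins at 80% or more formed 67 stretches with a median of 0.2 Mb, of which 5 reached 1 Mb. Longer domains appeared at a lower limit. A domain was a stretch of at least 1 Mb with every bin at 50% or more, except that single bins below were bridged. The limit of 50% was passed by 556 bins of the chromosome, or 42.5%, against 35.4% of all usable bins. Chromosome 11 held 18 domains with 46.3 Mb in all, numbered 1 to 6 along the short arm and 7 to 18 along the long arm from the lowest position. They made up 35.4% of its bins and 72.9% of its contacts. On the short arm 6 domains took up 39.6% of the bins, and on the long arm 12 domains took up 32.7%.

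The short arm was dominated by a few very long domains. Domain 3, 6.6 Mb from 20700001 to 27300000, was the longest of the chromosome. Each cell had 83.1% ± 19.1 of it in contact, with a median of 89.4%, and 110 of 118 cells had more than 50% of it in contact. No bin in it fell below 50.8%, and it held the highest bin of the arm, from 22400001 to 22500000, in contact in 112 of 118 cells (94.9%, exact 95% interval 89.3 to 98.1%). This part of the arm is known for the long genes NELL1 and LUZP2. Domain 5, 6.5 Mb from 36800001 to 43300000, had 77.5% ± 20.1, with a median of 83.1% and over 50% in 107 cells. It is known as a gene desert around LRRC4C, a gene of a synaptic adhesion protein. Cell 58 had its only contacts here, and no cell was without contact in domain 5. Domain 4, 3.1 Mb from 28300001 to 31400000, had 77.1% ± 23.2.

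A shorter domain lay close to the tip of the short arm. Domain 1, the 1 Mb from 4600001 to 5600000, had 79.4% ± 25.4 in contact per cell, with a median of 90.0%, and 102 of 118 cells had over 50% of it in contact. This part of the arm is known to hold the beta globin genes, which are active in erythroid cells, within a cluster of olfactory receptor genes. The bins of domain 1 ranged from 55.1 to 91.5% in frequency, and none was assigned to these genes. Domain 1 was higher in cells 96 to 124, with 88.9%, than in cells 1 to 94, with 76.4%. The tip itself contrasted with it, since the 4.1 Mb from 100001 to 4200000, known for the imprinted genes IGF2, H19 and CDKN1C, averaged a frequency of 0.310%. Any contact there was limited to 12 of 118 cells, and the highest of them had 4.88% of it in contact. Domain 2, 1.7 Mb from 15000001 to 16700000, reached 71.9% ± 26.2.

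The long arm carried most of its domains in its middle. In the 30.4 Mb from 79400001 to 109800000, domains 8 to 15 held 20.2 Mb. Domain 12, 5.7 Mb from 96400001 to 102100000, was the longest of this arm, with 80.9% ± 16.6 in contact per cell and over 50% in 112 of 118 cells. It is known to span CNTN5, a long gene of a neuronal adhesion protein. It was also the domain least often covered as a whole, since no cell had all of its bins in contact and the highest reached 98.2%. Domain 14, 2.3 Mb from 105000001 to 107300000, had 82.0% ± 19.4. It held the highest bin of the chromosome, from 106500001 to 106600000, in contact in 114 of 118 cells (96.6%, exact 95% interval 91.5 to 99.1%). Domain 10, 1.2 Mb from 88300001 to 89500000, had 81.6% ± 17.9, and domain 11, 3 Mb from 89800001 to 92800000, had 81.4% ± 20.4. The lowest bin between positions 89800001 and 92800000 was at 33.1%.

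The other domains of this block followed closely. Domain 8, 3.2 Mb from 79400001 to 82600000, had 80.0% ± 22.8. Domain 9, 1.9 Mb from 83000001 to 84900000, had 76.4% ± 24.6 and lies where the long gene DLG2, which encodes a synaptic scaffold protein, is known to be. Domain 13, 1.9 Mb from 102500001 to 104400000, had 73.1% ± 24.8, and the cluster of matrix metalloproteinase genes is known to lie around its start. Domain 15, 1 Mb from 108800001 to 109800000, had 78.6% ± 27.8. The means of the 8 domains differed by less than their SDs between cells, so that no order among them is given.

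Domains 16 to 18 lay apart from this block, toward the end of the long arm. Domain 16, 1.1 Mb from 114300001 to 115400000, had 62.6% ± 34.3, and 12 cells had no contact in it. Domain 17, 1.5 Mb from 126900001 to 128400000, had 74.6% ± 28.0. Domain 18, 1.3 Mb from 131600001 to 132900000, had 63.1% ± 35.8, with no contact in 14 cells and all bins in contact in 28. The neuronal adhesion genes NTM and OPCML are known to lie in this part. The spread between cells was larger in domains 16 and 18 than in any other, and cell 58 was among the cells without contact.

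**Figure D3:**
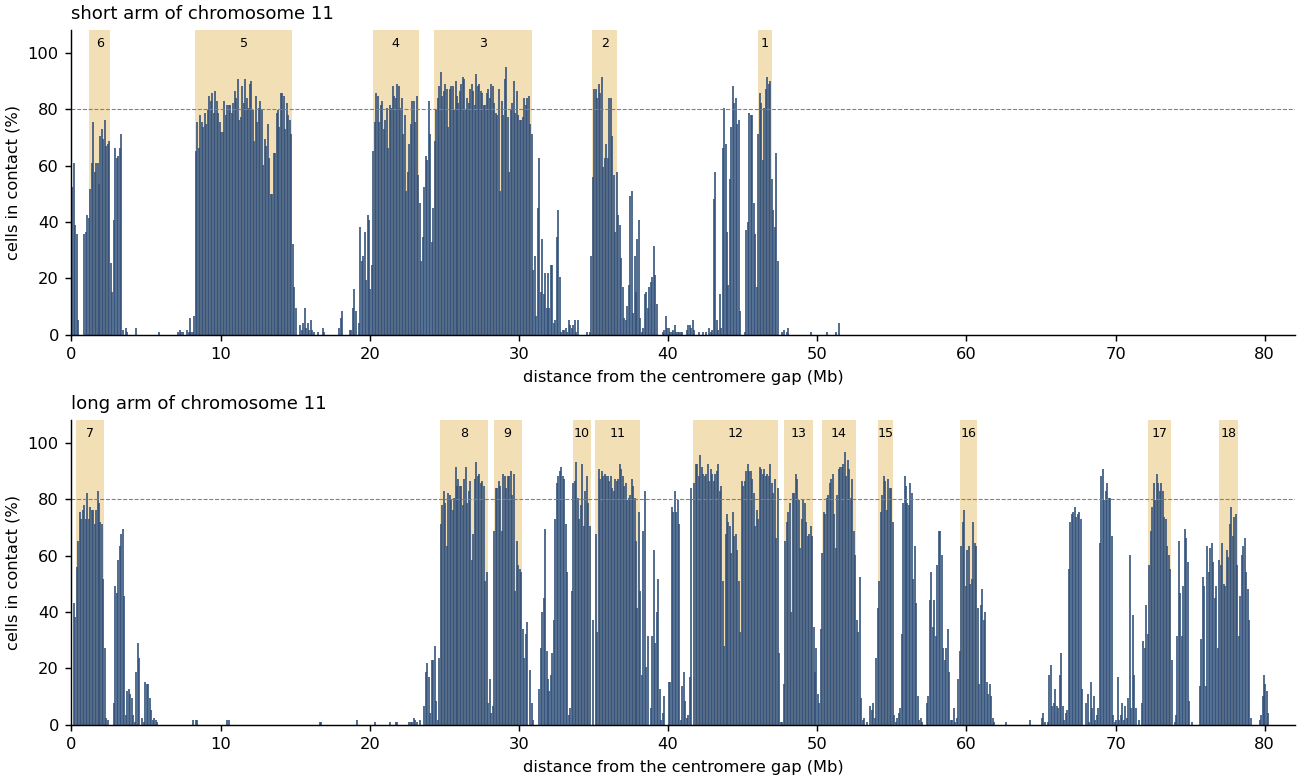
Contact frequency of each usable bin (vertical axis, percent of the 118 cells) against its distance from the centromere gap (horizontal axis, Mb) for the short arm (top) and the long arm (bottom). Shaded bands are the 18 numbered domains and the dashed line marks 80%; the bins of domain 3 lie between 50.8 and 94.9%, and the 7.4 Mb of the long arm that begin 5.4 Mb from the gap average 0.206%.

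The longest stretches of rare contact were on the long arm and began 5.4 Mb from the gap, beyond domain 7. The 7.4 Mb from 60100001 to 67500000 averaged 0.206%, and no contact was found there in 105 of 118 cells. After 2 bins at 0 in every cell the 3.8 Mb from 67700001 to 71500000 followed, with 0.0446% and no contact in 116 cells. Past another bin at 0 in every cell, a further 6.7 Mb from 71600001 to 78300000 had 0.215%, with no contact in 109 cells. This gene-dense part is known for MEN1, for the nuclear RNAs MALAT1 and NEAT1 and for the cyclin gene CCND1. In consecutive windows of 5 Mb, the share of bins in contact was 0.339% ± 1.23 from 60 to 65 Mb, 0.0706% ± 0.379 from 65 to 70 Mb and 0.0692% ± 0.457 from 70 to 75 Mb. It was 12.9% ± 7.37 from 75 to 80 Mb and 72.5% ± 19.6 from 80 to 85 Mb.

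Rare contact was more often seen in cells 96 to 124. From 65 to 70 Mb and from 70 to 75 Mb no bin was in contact in any of the cells 1 to 94, and the share in cells 96 to 124 was 0.298 and 0.292%. At the tip of the short arm cells 96 to 124 reached 1.13% and cells 1 to 94 only 0.0542%. Depth and set were not separated for these contacts.

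Other stretches of rare contact lay on both arms. The 4.5 Mb from 43700001 to 48200000 had 0.339%, and this part of the short arm is known for SPI1, a transcription factor gene of myeloid cells. The 3.8 Mb from 116400001 to 120200000 had 0.379%, and 107 of 118 cells had no contact in it. It is known for KMT2A, which is rearranged in leukaemias, for the CD3 genes of T cells and for a cluster of apolipoprotein genes. The window from 30 to 35 Mb, known for PAX6 and WT1, was mixed. It holds the end of domain 4, had a share of 28.6% ± 12.4, and its bins ranged from 0 to 88.1%.

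Some changes between both states were abrupt. The mean frequency of 3 bins was compared with that of the next 3 bins at 1272 positions. A step of at least 50 points was found at 27 borders, with at most 1 counted per 500 kb. Of these, 19 lay on the long arm and 8 on the short arm, which hold 796 and 512 usable bins. Borders of other chromosomes were not counted. The largest step was the end of domain 15 at 109800000, where the mean fell from 79.9 to 2.26% and the frequency of adjoining bins from 72.0 to 3.39%. At 123600000 it rose from 3.67 to 81.1%, and at 124500000 it fell from 76.0 to 1.98%. On the short arm the largest step was at 6800000, with 2.82% before and 78.2% after it.

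The flanks of the centromere gap were in contact in most cells, with a wide spread. Bins within 2 Mb of the gap had a contact share of 60.7% ± 24.5 (SD, n = 118), against 18.4% ± 6.50 from 2 to 10 Mb and 39.8% ± 9.36 beyond. The long arm side had 70.7% ± 30.2, with a lowest value of 0, a median of 84.2% and a highest of 100%. The short arm side had 49.5% ± 22.9, with a lowest value of 0, a median of 52.9% and a highest of 88.2%. On the long arm this flank overlaps most of domain 7, 1.9 Mb from 55000001 to 56900000, which is known to hold a large cluster of olfactory receptor genes. Domain 7 had 72.9% ± 31.0, and 9 cells had no contact in it. Frequency there dropped over 4 bins, from 71.2% in the bin starting at 56700001 to 2.54% in the bin starting at 57000001. The short arm flank overlaps part of domain 6, 1.4 Mb from 49000001 to 50400000, which had 65.3% ± 25.5.

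Contact of one flank went together with contact of the other. More than 50% of the bins were in contact on both sides in 62 cells, on the long arm side only in 32, on the short arm side only in 1 and on neither side in 23. Over cells, the shares of both flanks correlated with r = 0.662, and with 0.594 after the share of all other chromosomes was removed by regression. Without cell 58 these values were 0.647 and 0.585. The flank shares were higher in cells 96 to 124 than in cells 1 to 94, with 64.9 and 44.6% on the short arm side and 78.2 and 68.4% on the long arm side.

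The ends of the chromosome had less contact, and the short arm end had almost none. Bins within 2 Mb of an end had a contact share of 11.2% ± 8.78, against 39.0% ± 8.62 beyond 10 Mb. The short arm end had 0.339% ± 1.42, with no contact in 111 of 118 cells. The long arm end had 22.1% ± 17.2, with a lowest value of 0, a median of 20.0% and a highest of 70.0%, and no contact in 27 cells. Of the 7 cells with a contact at the short arm end, 7 also had a contact at the long arm end. Contact at the long arm end was common in any case, as a further 84 cells had it there only. The share of the long arm end was 33.9% in cells 96 to 124, above the 18.4% of cells 1 to 94.

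Within single cells the contacts formed many short runs of adjoining bins and a few very long ones. Over all cells there were 11261 runs with a median of 0.2 Mb. The mean run was 0.527 Mb ± 0.146 per cell (SD, n = 118). It was shortest in cell 58, at 0.100 Mb, and longest in cell 85, at 0.880 Mb. Cells had 95.4 ± 19.6 runs, and cell 98 had the most, 148. Over all cells, runs of at least 1 Mb held 53.1% of the contacts. The longest run spanned 8.2 Mb from 20700001 to 28900000 in cell 102, covering domain 3 and part of domain 4. Cell 71 followed with 7.7 Mb from 21300001, and cells 29 and 115 each had 7.2 Mb and cell 76 had 7.1 Mb from 20700001. Of 34 runs of at least 5 Mb, 32 lay on the short arm.

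The longest run of a cell fell into a few domains. Its midpoint lay in domain 3 in 48 cells, in domain 5 in 26, in domain 11 in 15 and in domain 12 in 10. In all, 80 cells had their longest run on the short arm and 38 on the long arm. Its length had a median of 3.65 Mb, and the mean was 4.00 Mb ± 1.58.

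**Figure D4:**
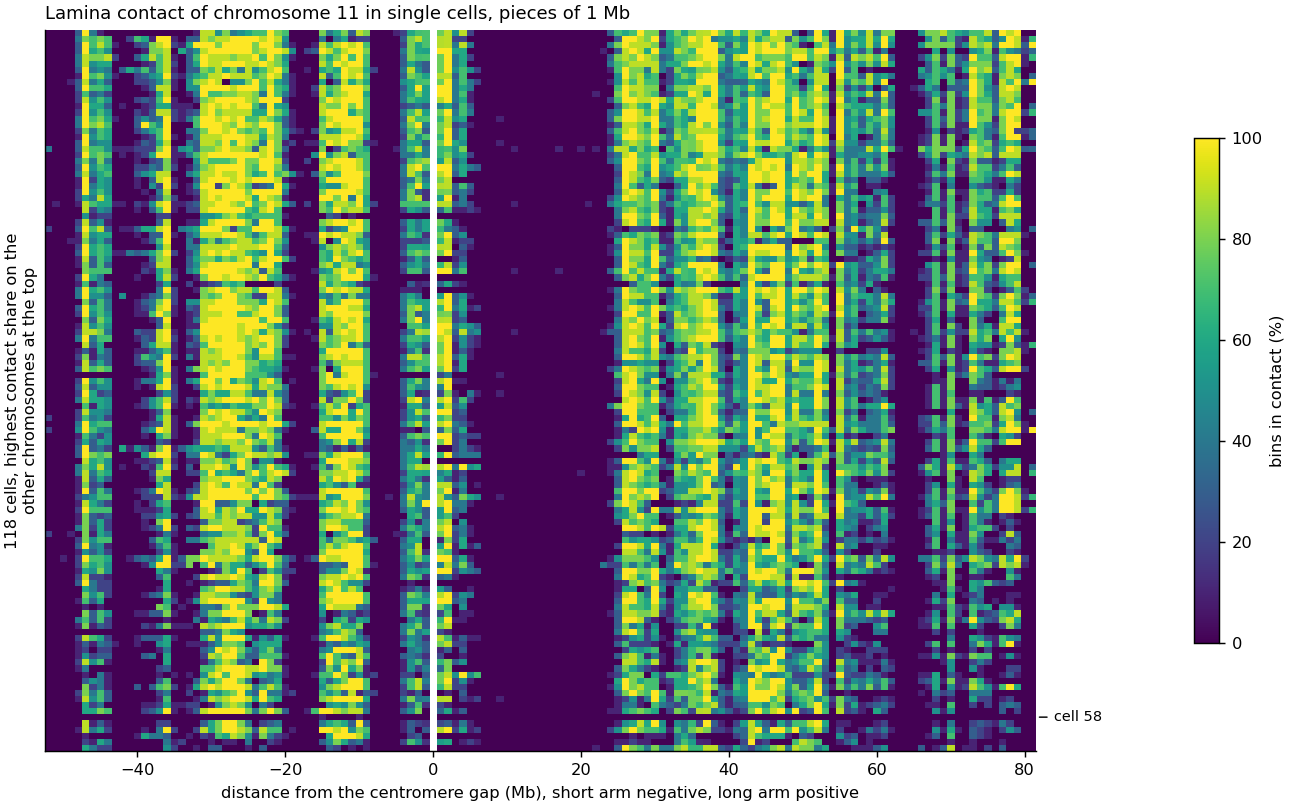
Percentage of bins in contact (colour, 0 to 100%) in pieces of 1 Mb along chromosome 11 (horizontal axis, distance from the centromere gap in Mb) in each of the 118 cells (rows, ordered by the contact share of their other chromosomes). Yellow bands at the domains recur in most rows, the long arm is dark between domains 7 and 8, and cell 58 is dark along its whole row.

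Most cells had most domains in contact. A domain was counted as held by a cell if more than 50% of its bins were in contact. Cells held 15.2 ± 3.50 of the 18 domains (SD, n = 118), with a median of 16.5, and 37 cells held all 18. Cell 58 held none, cell 12 held 3 and cell 73 held 5. Without cell 58 the mean was 15.3 ± 3.22. All 6 domains of the short arm were held in 65 cells and all 12 of the long arm in 44. Cells had 0.568 ± 1.77 domains without any contact, or 0.427 ± 0.903 without cell 58, in which 17 of the 18 were empty.

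Domains tended to be held by the same cells, above all neighbours. The contact shares of pairs of domains were correlated over cells after the share of all other chromosomes was removed by regression. These correlations describe 118 cells of unequal depth and carry no test. Adjacent domains of an arm, 16 pairs, correlated at 0.397 ± 0.120 on average (SD over pairs), and at 0.357 without cell 58. Pairs on the same arm at 20 Mb or more had 0.186 ± 0.111, and 0.153 without cell 58. Pairs on different arms had 0.212 ± 0.118, and 0.162 without it. Of all 153 pairs, 150 were above 0, and 145 without cell 58.

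The highest single values joined near and far domains. Domains 13 and 14, which are 0.6 Mb apart, had 0.611, and 0.581 without cell 58. Domains 6 and 7 on both sides of the centromere gap had 0.593, and 0.581 without cell 58. Domains 3 and 12, which are 69.1 Mb apart on different arms, had 0.600, and 0.528 without cell 58. Both were held in 108 cells and neither in 4, cell 58 included, while 2 cells held domain 3 alone and 4 held domain 12 alone.

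**Figure D5:**
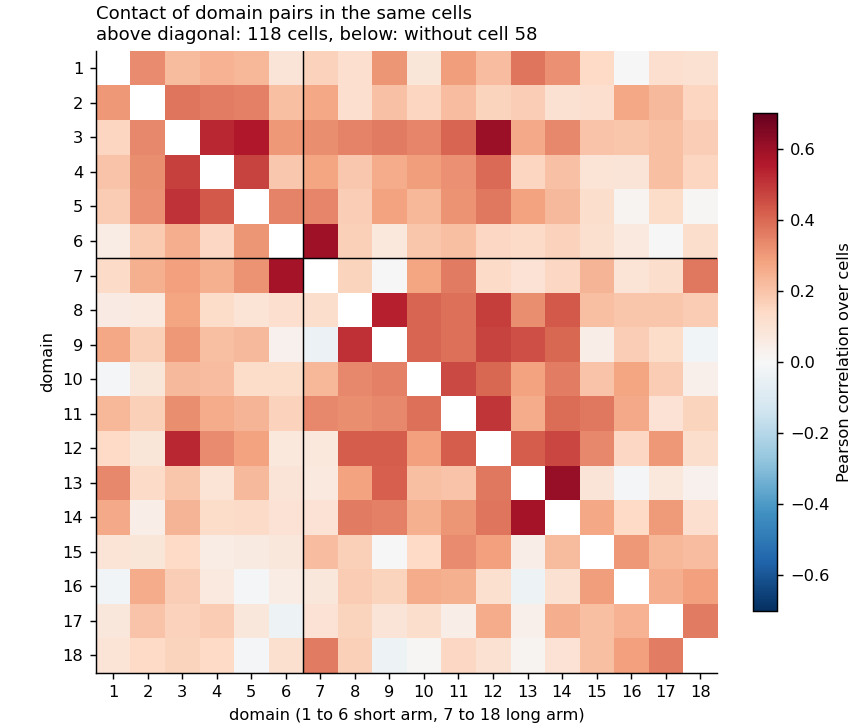
Pearson correlation over cells of the contact shares of the 18 domains (both axes, domain numbers), after the share of the other chromosomes was removed, with all 118 cells above the diagonal and without cell 58 below it. Lines separate the arms; the pairs 13 and 14, 6 and 7, and 3 and 12 are darkest, at 0.611, 0.593 and 0.600 with all cells.

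Both arms moved together as wholes. Their shares correlated over cells with r = 0.732, or 0.690 without cell 58. After the same regression the value was 0.457, or 0.384 without cell 58. In cells 1 to 94 the value after regression was 0.498, and in cells 96 to 124 it was 0.351. Cell 58 is among cells 1 to 94, and the value of that set without it was not computed. Over the 17 chromosomes with usable bins on both arms the mean was 0.375 ± 0.131 (SD over chromosomes). Chromosome 11 ranked at position 5 with all cells. Its value without cell 58, 0.384, was close to that mean, and the rank was not computed without this cell.

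For single bins at 20 to under 80%, the average correlation over all pairs fell with distance. There were 426 such bins on the chromosome. Neighbouring bins correlated at 0.409 ± 0.136 on average (SD over 304 pairs), at 0.360 on the short arm and 0.439 on the long arm. Over all pairs it was 0.241 at 0.6 to 1 Mb, 0.126 at 2.1 to 5 Mb, 0.0731 at 10.1 to 20 Mb and 0.0322 over 50 Mb. Pairs of the same arm did not fall further at the longest distances, with 0.0431 at 20.1 to 50 Mb and 0.0625 over 50 Mb. Pairs on different arms at 2.1 to 5 Mb, which face each other across the gap, had 0.181 ± 0.0916 (SD over 114 pairs), against 0.124 for pairs of the same arm at that distance. Without cell 58 the value across the gap was 0.178.

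The sets of cells by sample number differed in some domains. Of the 18 domains, 11 had a higher mean share in cells 96 to 124, and 7 a lower one, namely domains 5, 8, 9, 10, 12, 13 and 14. Domain 13 had the largest drop, from 76.6% in cells 1 to 94 to 62.0%, and domain 18 the largest rise, from 58.4 to 78.3%. Over bins, the frequencies in both sets had a Pearson correlation of 0.934 across 1308 bins, which are not independent. The frequency was higher in cells 96 to 124 in 732 of the 1308 bins. The 1308 bins include the 322 that were in contact in no cell and could not be higher in either set. This count was not made for all usable bins. The remaining chromosomes together also had a higher share in cells 96 to 124, so the rise is not particular to chromosome 11.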

How the data were processed

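Single-cell DamID of Dam-LaminB1 was read from 1 table of the series. The deposited values are a ratio of observed to expected reads per bin of 100 kb, as read from the table's name and its values, and no source used here explains what was expected. Per the submitters' processing notes, cutadapt, Bowtie2 2.1.0 and the build hg19 were used, while their roles, filters and the treatment of duplicates were not stated. Cells numbered 33, 34, 44, 86, 95 and 120 were not analysed here. The profile of unfused Dam was not used, so chromatin accessibility is not separated from contact.

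Whole reads were recovered from the ratios as multiples of a step set by bin and cell. All values above 0 in the usable bins, 1697706 or 100%, lay within 0.02 of a whole read. Recovered reads numbered 28372 to 385661 per cell. They carry no molecular identifiers, so intervals (exact Clopper-Pearson, 95%) and limits cover the counting of cells only. Stretches and runs join bins that adjoin on the sequence and therefore break at left-out bins. Distances from the gap and from the outermost usable bins were taken to the far edge of a bin. Correlations over cells are Pearson's. Scripts ran in Python 3.11.15 with numpy 2.4.6, pandas 2.3.3 and scipy 1.17.1 and were tested on simulated data.

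The chromosome, its measures, the named stretches (the longest of each class, the highest bin of each arm, the longest runs, windows of 5 Mb and domains) and the alternatives were chosen with earlier results of these data known. The borders, the single low bins within domains and the values without cell 58 were chosen after seeing the data. The gene lists and the analysis of base composition that had been planned need positions of hg19, which were not used here, so that genes appear as background only and no sequence is printed.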

Additional observations from a re-analysis of the deposited data

How the results depend on the processing

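Under 11 alternatives, 10 results gave 92 values, of which 80 kept to their criterion, 12 moved and none changed sign. The criterion was 1 SD between cells for shares, differences and runs, 1.5 times for percentages of bins, 1 SD over pairs for neighbouring bins and 1 SD over 17 chromosomes for the arms. A criterion of 1 SD between cells is wide for a mean, so kept values could still shift. The share near the chromosome ends went from 11.2 to 4.24% at a contact value of 2 and was counted as kept. So was the share near the gap, which went from 60.7 to 51.8% on thinning. At a contact value of 0.5, bins at 80% or more became 33.6%, bins at 0% became 7.26% and the mean run 0.681 Mb. At a contact value of 2, the contact share of the chromosome was 22.0%, that near the gap 35.7%, the mean run 0.276 Mb and bins at 80% or more 0%. Taking the highest 33% of bins as the contacts of each cell gave 11.5% of bins at 0%. Its correlations were computed and compared without regression, because with equal shares over the whole table the regression itself fixes the sum of both arms. The arms then correlated at 0.435, against 0.732 as the unregressed value of the report. Thinning to 50000 reads left 109 cells and gave 16.1% of bins at 0%. Bins at 80% or more fell to 13.6%, which lay at the limit of 1.5 times and was counted as kept. With 90% as the limit of frequent contact, 2.98% of bins passed. Bridging gaps of 1 bin gave a mean run of 0.947 Mb. Leaving out cell 58, chosen after seeing the data, moved none of the 10 results past its criterion. For means over cells this was fixed beforehand, since leaving out 1 cell cannot shift them by 1 SD between cells. The correlation of both arms after regression fell from 0.457 to 0.384 and was counted as kept. No paired analysis was possible because the labels give a single group. Depth limits the rare classes, since a ratio of 1 stood for as little as 1.21 reads. The frequent class also fell when reads were thinned.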

Other observations

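Some domains were interrupted by single bins of lower contact. Within domain 12, the bin from 98400001 to 98500000 was in contact in 33 of 118 cells (28.0%, exact 95% interval 20.1 to 37.0%), with 50.8% in the bin before it and 67.8% in the bin after it. A second bin of this domain, from 99500001 to 99600000, was at 33.1%, with 50.8 and 86.4% beside it. Both were lower in cells 96 to 124, at 10.7 and 17.9%, than in cells 1 to 94, at 33.3 and 37.8%. In domain 2 the bin from 15100001 to 15200000 was at 36.4%, and it was at 64.3% in cells 96 to 124 and 27.8% in cells 1 to 94.

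Bins that were in contact more often also had higher ratios when in contact. The median ratio in contact was 1.28 over the contacts of bins above 0 to 5%, 2.03 over those of bins from 20% to under 80%, and 2.51 over those that reached 80%. Frequency and ratio are read from the same values, so this is a description.

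Bins at 40 to under 60% numbered 94, or 7.19%, against 8.81% of all usable bins. None of their 69 stretches was longer than 0.3 Mb, and the median was 0.1 Mb. Stretches at 80% or more and at 5% or less had a median of 0.2 Mb, and the longest of them reached 1.9 and 7.4 Mb. These classes hold more bins, 20.4 and 37.0% of the chromosome. A class with fewer bins forms shorter stretches by itself, so the lengths do not compare the kinds of contact. In the 0.3 Mb from 84600001 to 84900000, at the end of domain 9, 49 cells had all bins in contact and 35 had none. Cells 1 to 94 averaged 63.0% there, and cells 96 to 124 averaged 31.0%. In the 0.3 Mb from 131200001 to 131500000 the means were 44.8 and 69.0%, in the opposite order.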
